A study of Homo sapiens with 6 samples.

Results

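The S100 proteins and the annexins are families of calcium-regulated proteins, and 33 of the 24462 gene symbols in the files belong to them or to their partner S100PBP. Members were chosen by symbol alone: 20 S100 genes, S100PBP and 12 annexins, with pseudogene and antisense symbols left out. Most S100 proteins bind calcium through a pair of EF-hand loops, act as dimers and open a binding surface for target proteins when calcium rises. Annexins bind negatively charged membrane lipids in the presence of calcium and serve in membrane repair, vesicle traffic and the cell cortex. Several S100 proteins dock on the tail of a particular annexin, as S100A10 does on annexin A2 and S100A11 on annexin A1. In breast cancer both families are studied for cell motility, invasion and plasmin formation at the cell surface.

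RNA was sequenced from cells labelled MDA-MB-231, an established triple-negative breast cancer line, with 500 ng of RNA per library and a kit that reads the 3′ ends of transcripts. The 6 libraries form 3 groups of 2. The first group, called here ELK3-labelled, is labelled as cells with a stable ELK3 knockdown by retroviral shRNA, transfected with 1 µg of the plasmid pLenti-cMyc-DDK-ELK3 and taken 48 hours later. The second, called vector-labelled, is labelled as the same knockdown cells given 1 µg of the empty plasmid pLenti-cMyc-DDK for 48 hours. The control group is labelled as MDA-MB-231 infected with a retrovirus made from a control plasmid, and no later transfection is recorded for it. Any contrast with the controls therefore joins the labelled knockdown with a plasmid transfection, and the parts of these cannot be told apart. Whether the cells were pooled or a single clone, and whether replicates came from separate cultures, is not stated, so p-values measure the spread between these libraries, which may be technical.

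ELK3, the targeted gene and an ETS-family transcription factor, ran against the labels. It stood at 20.4 and 22.6 CPM (counts scaled to 1000000 per library, with TMM factors) in the ELK3-labelled libraries, at 758.9 and 697.2 CPM in the vector-labelled libraries and at 128.6 and 123.9 CPM in controls. The column headings in the files, KD for the ELK3-labelled and KD+E for the vector-labelled libraries, also differ from the labels. If the labels of these 2 groups were exchanged, the contrasts with controls would exchange places and the sign of the contrast between plasmid groups would turn. Totals ranged from 4884483 to 9131214 counts, and 0 counts in a library still allow up to 3, which equal 0.319 to 0.645 CPM, for counting error only. The plasmid groups also stood apart from the controls in markers of the cell line. Across all genes tested, 30.8% were lower and 31.8% higher in ELK3-labelled libraries than in controls, with a median log2 fold change of 0.02. In vector-labelled libraries 35.3% were lower and 37.0% higher than in controls, with a median of 0.05. Of 22 tested genes typical of MDA-MB-231, 21 were lower in ELK3-labelled libraries than in controls (median log2 fold change -3.54) and 21 in vector-labelled libraries (median -3.28). Their summed level was 1265 and 1221 CPM in ELK3-labelled, 1180 and 1157 CPM in vector-labelled and 7471 and 7305 CPM in control libraries. Of 18 tested genes typical of HEK293, a human embryonic kidney line, 16 were higher in ELK3-labelled and 14 in vector-labelled libraries than in controls, with sums of 1449 and 1453, 841.1 and 879.0, and 253.5 and 250.5 CPM in the ELK3-labelled, vector-labelled and control libraries. CDKN2A, a cell-cycle inhibitor gene, is on this HEK293 list and so already within these counts and sums. It was at 174.8 and 174.7 CPM in ELK3-labelled and 200.4 and 235.5 CPM in vector-labelled libraries, against 13.4 and 17.6 CPM in controls. The part of these differences in the results below was not tested, and labelled treatment and a difference in cell identity cannot be told apart. In bulk libraries, fewer cells of a type and less RNA per cell cannot be told apart either.

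Most detectable members were lower in both plasmid groups than in controls. Of the 33 members, 20 passed the filter on low counts: 11 S100 genes, S100PBP and 8 annexins. Calls were made with edgeR's quasi-likelihood test at a Benjamini-Hochberg adjusted p under 0.05 over all 15386 genes tested. Between ELK3-labelled libraries and controls, 14 of the 20 fell and 1 rose, where 30.8% of all genes tested fell and 31.8% rose. Between vector-labelled libraries and controls, 15 fell and 2 rose, where 35.3% of all genes tested fell and 37.0% rose. The median log2 fold change of the 20 members was -1.08 in the ELK3-labelled contrast (all genes 0.02) and -1.31 in the vector-labelled contrast (all genes 0.05). These contrasts share the control libraries. The counts describe the members that passed the filter, which S100A3 did through the controls alone and S100A1 through the plasmid groups alone. At least 8-fold lower were 4 members in each contrast, where 2.24% of all genes tested were so in the ELK3-labelled contrast and 1.94% in the vector-labelled contrast. Between the plasmid groups, 4 members were higher and 5 lower in ELK3-labelled than in vector-labelled libraries, where 30.0% of all genes tested were higher and 29.6% lower, and the members' median was -0.07 (all genes -0.02).

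**Figure D1:**
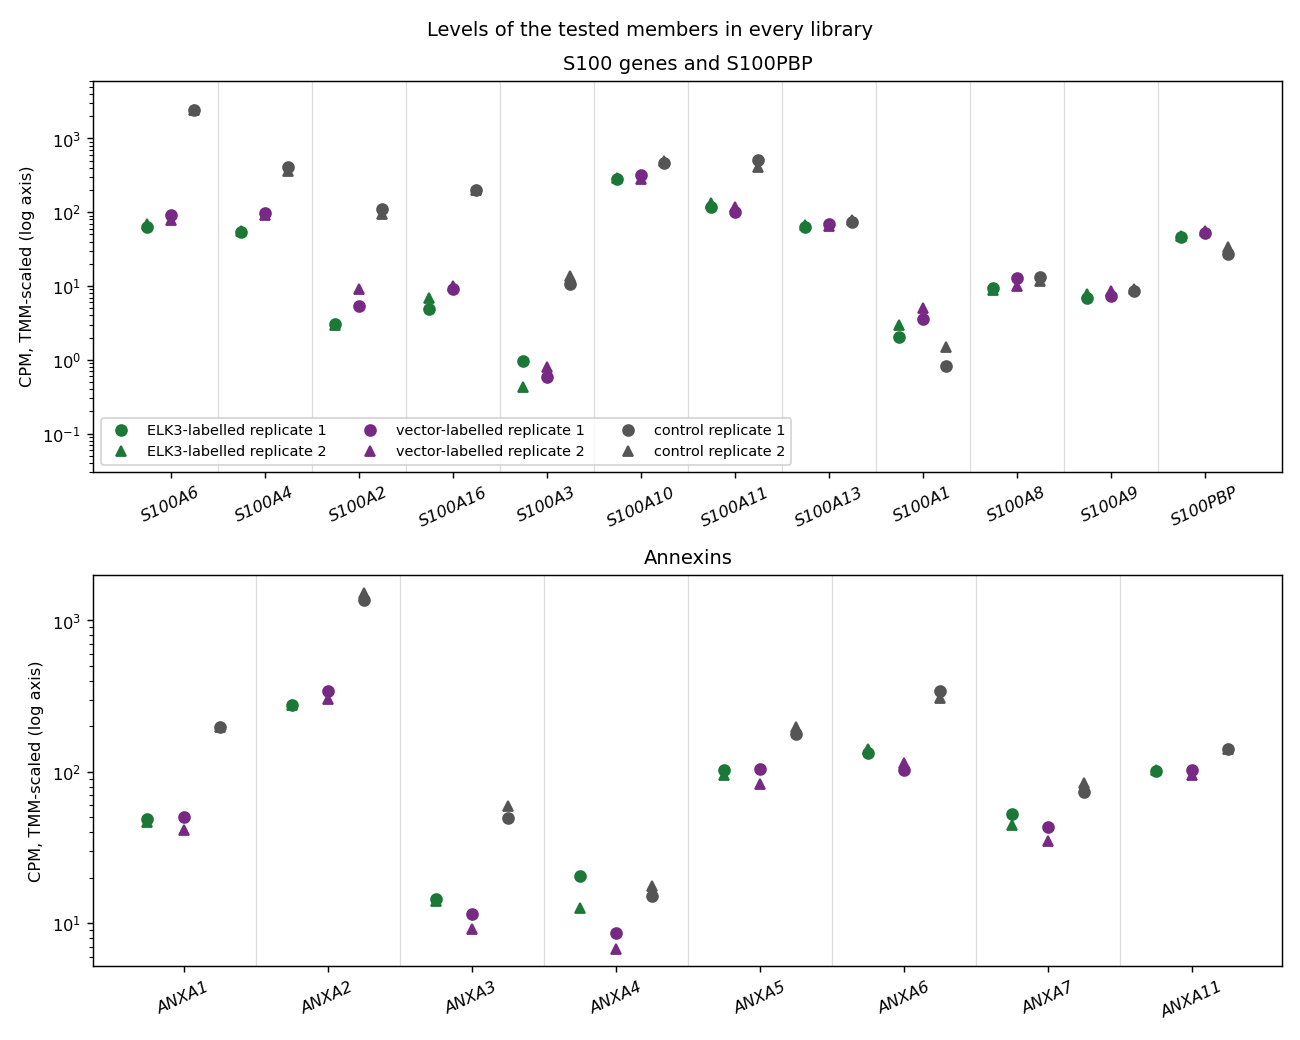
Level of each tested member in every library, in TMM-scaled CPM on a log axis, with circles for replicate 1 and triangles for replicate 2 of the ELK3-labelled (green), vector-labelled (purple) and control (grey) groups. S100A6 sits at 2407 and 2457 CPM in controls and under 100 CPM in the other 4 libraries, while S100A13, S100A8 and S100A9 were not called in any comparison.

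Summed over the 20 S100 genes, the level was 610.6 and 648.1 CPM in ELK3-labelled libraries, 720.4 and 681.5 CPM in vector-labelled libraries and 4215 and 4127 CPM in controls. The 12 annexins summed to 754.7 and 736.5, 770.0 and 692.2, and 2369 and 2527 CPM in the same order of groups. In both sums the control libraries lay above all others. S100A6 made up 10.2% and 10.6% of S100 counts in ELK3-labelled libraries, 12.8% and 11.4% in vector-labelled libraries, and 57.1% and 59.5% in controls.

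All 11 tested S100 genes lie in the S100 cluster of chromosome 1, band q21, and 7 of them fell in both contrasts with controls. The shares of all genes tested that fell were 30.8% in the ELK3-labelled and 35.3% in the vector-labelled contrast. In RefSeq map order the cluster runs S100A10, S100A11, S100A9, S100A12, S100A8, S100A7A, S100A7, S100A6, S100A5, S100A4, S100A3, S100A2, S100A16, S100A14, S100A13 and S100A1. Those that fell were S100A10 and S100A11 at one end and the 5 tested genes from S100A6 to S100A16, called the S100A6 run here. S100A6, S100A2 and S100A16 fell by at least 8-fold in each contrast. So did S100A3, which passed the filter through the controls alone and had to be lower. Whether position in the cluster relates to the change was not tested. Of the next tested neighbours, S100A13 was not called and S100A1 was higher in vector-labelled libraries. Promoter windows of 3 genes of the S100A6 run are shown because these genes moved together. They are the 250 bases before the start on the minus strand, from RefSeq on GRCh38.p14, another build than the hg19 the submitters name, at chr1:153535992-153536241 for S100A6, chr1:153545807-153546056 for S100A4 and chr1:153565845-153566094 for S100A2. Capitals mark a TATA box in S100A4 and an AP-1 motif in S100A2.
S100A6: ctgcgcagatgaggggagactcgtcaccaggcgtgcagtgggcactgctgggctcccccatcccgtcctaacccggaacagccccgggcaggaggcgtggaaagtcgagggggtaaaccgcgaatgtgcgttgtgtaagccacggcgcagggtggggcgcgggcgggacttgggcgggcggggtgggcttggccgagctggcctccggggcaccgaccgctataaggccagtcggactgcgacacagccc
S100A4: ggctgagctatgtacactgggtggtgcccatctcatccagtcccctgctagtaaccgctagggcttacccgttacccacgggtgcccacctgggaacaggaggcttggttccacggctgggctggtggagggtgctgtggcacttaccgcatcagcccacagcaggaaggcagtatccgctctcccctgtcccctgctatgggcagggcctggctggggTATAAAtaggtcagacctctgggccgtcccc
S100A2: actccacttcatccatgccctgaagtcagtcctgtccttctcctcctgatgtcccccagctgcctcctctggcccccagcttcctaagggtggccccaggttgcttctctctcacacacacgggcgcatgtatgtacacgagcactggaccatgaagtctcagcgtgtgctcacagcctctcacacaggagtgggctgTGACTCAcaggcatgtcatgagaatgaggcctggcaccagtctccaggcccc

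The AP-1 motif, TGANTCA on either strand, lies from -52 to -46 of the S100A2 start shown, the upstream one of 2 (the window of the other start, chr1:153563888-153564137, holds no motif searched), and the S100A4 TATA box, TATAAA on the gene's strand, from -31 to -26. No motif searched is in the S100A6 window. Over the 43 windows of the 30 members with one, AP-1 was in 6 windows, of ANXA2, S100A12, S100A2, S100A3, S100A5 and S100PBP, while 6.57% of all 35116 RefSeq windows hold it. The ETS motif CCGGAAG, on either strand, was in 2 member windows, of ANXA11 and S100A9, against 8.52% of all windows. The CArG box, the motif of SRF, was in those of ANXA7 and S100G, against 1.16% of all windows. The TATA box was in 15 windows of 14 members, against 6.80% of all windows. No matches to different motifs overlapped. A match is a description of these letters, not a bound site.

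S100A6, also called calcyclin and a partner of the ubiquitin-ligase component CACYBP, had the largest fitted fall of the 20 tested members in both contrasts with controls. In the ELK3-labelled contrast S100A2 (-5.10 ± 0.24) and S100A16 (-5.02 ± 0.16) were close to it, and their order was not tested. S100A6 was at 62.3 and 68.8 CPM in ELK3-labelled libraries, 92.3 and 77.4 CPM in vector-labelled libraries and 2407 and 2457 CPM in controls. The 3 groups did not overlap. That is 37.0-fold lower in ELK3-labelled libraries than in controls (log2 fold change -5.21 ± 0.09 SE, edgeR adjusted p = 3.51e-29) and 28.5-fold lower in vector-labelled libraries (-4.83 ± 0.09, edgeR adjusted p = 2.62e-28). ELK3-labelled libraries were also lower than vector-labelled ones, by a log2 change of -0.37 ± 0.10 (edgeR adjusted p = 0.00167), a call that is lost without vector-labelled replicate 1 (-0.23, adjusted p = 0.139).

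S100A4, known as metastasin, binds nonmuscle myosin and is linked to cell motility. It was at 53.6 and 55.0 CPM in ELK3-labelled libraries, 97.0 and 92.4 CPM in vector-labelled libraries and 407.0 and 364.5 CPM in controls. Each group lay apart from the others. S100A4 was 7.10-fold lower in ELK3-labelled libraries than in controls (-2.83 ± 0.09, edgeR adjusted p = 2.63e-23) and 4.07-fold lower in vector-labelled libraries (-2.02 ± 0.09, edgeR adjusted p = 7.95e-20). It was 1.74-fold lower in ELK3-labelled than in vector-labelled libraries (-0.80 ± 0.10, edgeR adjusted p = 1.48e-08), and this call held in every alternative run, with adjusted p from 2.41e-14 to 2.17e-06. The files list S100A4 and S100A5 separately, but their RefSeq gene models overlap on the same strand, so some reads may belong to either.

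S100A2, a mostly nuclear S100 protein of epithelia, was at 3.02 and 2.98 CPM in ELK3-labelled libraries, 5.29 and 9.0 CPM in vector-labelled libraries and 111.3 and 94.8 CPM in controls. It was 34.2-fold lower in ELK3-labelled libraries than in controls (-5.10 ± 0.24, edgeR adjusted p = 3.72e-22) and 14.9-fold lower in vector-labelled libraries (-3.90 ± 0.20, edgeR adjusted p = 4.72e-20). The direct contrast of the plasmid groups was -1.20 ± 0.29 (edgeR adjusted p = 4.65e-04, from 4.73e-05 to 0.0393 over the alternatives). These levels rest on 19 and 28 counts in the ELK3-labelled libraries and 36 and 45 in the vector-labelled ones. Without vector-labelled replicate 2 the plasmid contrast shrank to -0.81 and was still called.

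S100A16, a widely expressed member, was at 4.93 and 6.91 CPM in ELK3-labelled libraries, 9.11 and 10.0 CPM in vector-labelled libraries and 198.0 and 197.4 CPM in controls. Its fold against controls was 32.4-fold lower in ELK3-labelled libraries (-5.02 ± 0.16, edgeR adjusted p = 8.69e-26) and 20.8-fold lower in vector-labelled libraries (-4.38 ± 0.16, edgeR adjusted p = 2.50e-24). The difference between the plasmid groups, -0.64 ± 0.21 (edgeR adjusted p = 0.00774), was lost when ELK3-labelled replicate 1 (adjusted p = 0.0958) or vector-labelled replicate 2 (adjusted p = 0.0522) was left out. S100A3, a cysteine-rich protein of the hair cuticle, was at 0.954 and 0.425 CPM in ELK3-labelled libraries, 0.588 and 0.800 CPM in vector-labelled libraries and 10.7 and 13.8 CPM in controls. Having passed the filter only there, it was bound to show a fall, and 4 to 6 counts per library stand behind its level in the plasmid groups. Its log2 fold changes were -4.21 ± 0.52 in ELK3-labelled and -4.13 ± 0.58 in vector-labelled libraries against controls.

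**Figure D2:**
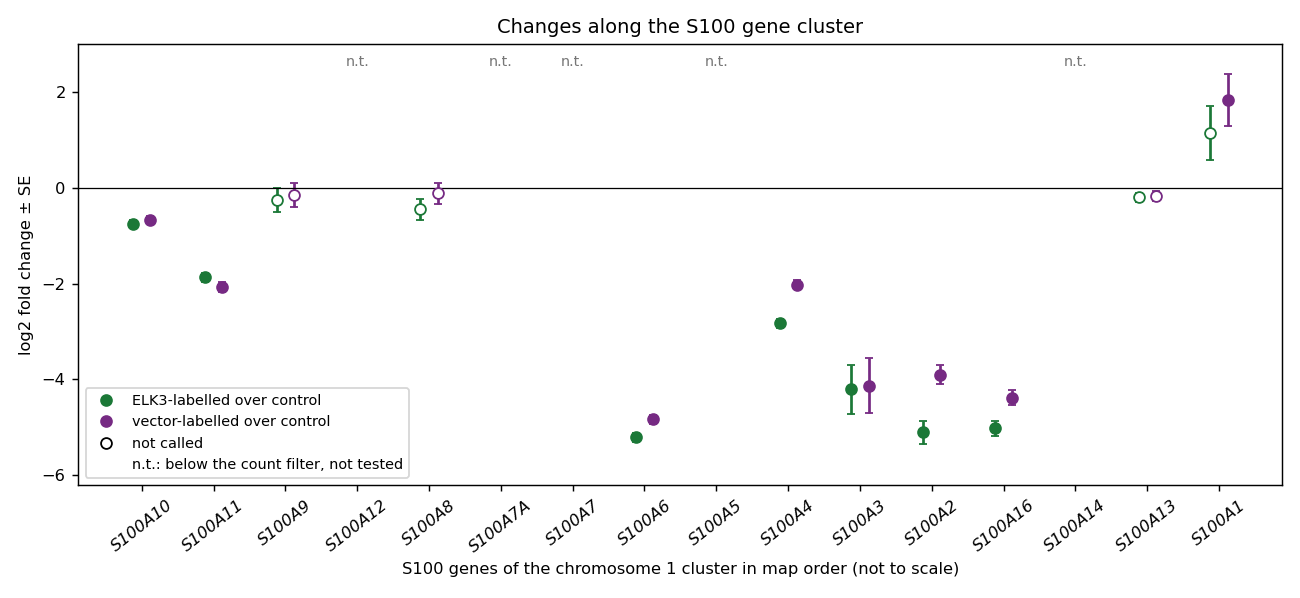
Log2 fold change against controls (points, with SE as bars) of the S100 genes of the chromosome 1 cluster in map order, for ELK3-labelled (green) and vector-labelled (purple) libraries; open points were not called and n.t. marks genes not tested. The run from S100A6 to S100A16 lies at -2.02 or below in both contrasts, and S100A13 and S100A1, at the right end, do not.

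At the right end of the cluster, S100A13, a cofactor in the release of the growth factor FGF1, was not called in any contrast. It was at 63.8 and 68.2 CPM in ELK3-labelled libraries, 69.6 and 64.2 CPM in vector-labelled libraries and 72.8 and 78.7 CPM in controls. Controls were the highest, with changes against them below the threshold (-0.20 ± 0.10, edgeR adjusted p = 0.0967 for ELK3-labelled and -0.17 ± 0.11, edgeR adjusted p = 0.137 for vector-labelled libraries). S100A1, a regulator of calcium cycling in heart muscle, was low, at 2.07 and 2.98 CPM in ELK3-labelled libraries, 3.53 and 5.00 CPM in vector-labelled libraries and 0.836 and 1.51 CPM in controls. It was 3.54-fold higher in vector-labelled libraries than in controls (1.83 ± 0.55, edgeR adjusted p = 0.00154), from 4 and 7 counts in the controls, and it passed the filter through the plasmid groups alone. In ELK3-labelled libraries the value was 1.14 ± 0.56 (edgeR adjusted p = 0.0583), which passed without ELK3-labelled replicate 1 (1.34, adjusted p = 0.0491). S100A1 and S100A13 overlap on opposite strands, so reads of the pair cannot be told apart unless counting used strand.

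S100A8 and S100A9 form calprotectin, the abundant calcium-binding complex of neutrophils and monocytes, and stand left of the S100A6 run. S100A8 was at 9.54 and 8.93 CPM in ELK3-labelled libraries, 12.9 and 10.0 CPM in vector-labelled libraries and 13.4 and 11.8 CPM in controls. S100A9 was at 6.84 and 7.76, 7.34 and 8.60, and 8.57 and 9.03 CPM in the same groups. Neither was called in any contrast, with edgeR adjusted p from 0.0681 to 0.731. Per 100 S100A8 counts there were 71.7 and 86.9 S100A9 counts in ELK3-labelled, 56.8 and 86.0 in vector-labelled and 64.1 and 76.4 in control libraries. Markers of neutrophils and monocytes were present as well: their 15 genes summed to 185.6 and 184.7 CPM in ELK3-labelled, 180.7 and 158.7 CPM in vector-labelled and 149.9 and 156.8 CPM in control libraries. VCAN held 92.2 and 83.7 CPM of these sums in ELK3-labelled and 10.7 and 10.3 CPM in control libraries. Its log2 fold change against controls was 3.06 in ELK3-labelled and 1.78 in vector-labelled libraries. Without VCAN, the ELK3-labelled sums would lie below the control sums. Within the list of 15 genes, 3 of 11 tested changed against controls in each plasmid group. In ELK3-labelled libraries 1 was up, VCAN, and 2 were down. In vector-labelled libraries 2 were up, VCAN among them, and 1 was down. The neutrophil genes MPO and ELANE had 0 to 0.213 CPM. Lymphocyte and NK markers, 18 genes, summed to 312.6 and 329.7, 401.3 and 373.2, and 337.5 and 345.6 CPM in ELK3-labelled, vector-labelled and control libraries. NCAM1 held 62.8 and 58.2, 47.4 and 43.2, and 8.99 and 11.8 CPM of these sums. It was the 1 gene of 15 tested that rose in ELK3-labelled libraries against controls, while 6 fell. In vector-labelled libraries 2 rose, NCAM1 among them, and 0 fell. Over all genes tested 30.8% fell and 31.8% rose in the ELK3-labelled contrast, and 35.3% fell and 37.0% rose in the vector-labelled contrast. The part of such cells in the S100A8 and S100A9 counts was not tested.

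S100A10 and annexin A2 form a heterotetramer that sits under the plasma membrane and binds plasminogen. Their promoter windows are shown as those of the pair whose ratio differed between groups, on the minus strand of GRCh38.p14 at chr1:151993860-151994109 for S100A10 and chr15:60397987-60398236 for ANXA2. Capitals mark an AP-1 motif from -127 to -121 and a TATA box from -31 to -26 of the ANXA2 start, and the S100A10 window holds no motif searched.
S100A10: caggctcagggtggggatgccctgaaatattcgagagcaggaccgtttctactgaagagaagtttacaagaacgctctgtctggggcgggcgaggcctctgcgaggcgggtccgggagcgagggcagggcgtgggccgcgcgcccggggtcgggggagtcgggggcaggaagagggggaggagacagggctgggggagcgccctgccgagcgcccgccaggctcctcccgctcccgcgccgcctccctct
ANXA2: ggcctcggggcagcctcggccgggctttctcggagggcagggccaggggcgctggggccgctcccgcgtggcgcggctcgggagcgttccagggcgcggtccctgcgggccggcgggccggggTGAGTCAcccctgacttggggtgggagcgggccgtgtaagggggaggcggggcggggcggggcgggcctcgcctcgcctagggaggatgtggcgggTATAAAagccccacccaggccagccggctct

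S100A10 was at 282.6 and 289.8 CPM in ELK3-labelled libraries, 317.2 and 282.3 CPM in vector-labelled libraries and 469.7 and 490.1 CPM in controls. It was 1.68-fold lower in ELK3-labelled libraries than in controls (-0.75 ± 0.08, edgeR adjusted p = 1.60e-09) and 1.60-fold lower in vector-labelled libraries (-0.68 ± 0.08, edgeR adjusted p = 8.80e-09). ANXA2 was at 274.9 and 276.4 CPM in ELK3-labelled libraries, 341.8 and 302.2 CPM in vector-labelled libraries and 1366 and 1519 CPM in controls. It was 5.23-fold lower in ELK3-labelled libraries than in controls (-2.39 ± 0.08, edgeR adjusted p = 3.23e-22) and 4.47-fold lower in vector-labelled libraries (-2.16 ± 0.08, edgeR adjusted p = 3.66e-21). Per 100 ANXA2 counts a library held 103 and 105 S100A10 counts in ELK3-labelled libraries, 92.8 and 93.4 in vector-labelled libraries and 34.4 and 32.3 in controls. The 3 groups did not overlap in this ratio. With 2 libraries a group an exact two-sided permutation test cannot go below p = 0.333, the value it gave for each pair of groups.

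Near-identical pseudogenes limit the ANXA2 value, since reads may be divided among the copies. ANXA2P1, ANXA2P2 and ANXA2P3 together held 10.8 and 11.7 counts per 100 of ANXA2 in ELK3-labelled, 13 and 13.6 in vector-labelled and 13.9 and 13.4 in control libraries. Summed with them, ANXA2 was at a log2 fold change of -2.42 in ELK3-labelled libraries and -2.17 in vector-labelled libraries against controls. Between the plasmid groups ANXA2 alone was called lower in ELK3-labelled libraries (-0.23 ± 0.09, edgeR adjusted p = 0.0224), and the sum also (-0.25, adjusted p = 0.0107). Leaving out ELK3-labelled replicate 1 (log2 fold change -0.21), ELK3-labelled replicate 2 (-0.22) or vector-labelled replicate 1 (-0.12) lost the call for ANXA2 alone. With all libraries, that call was also lost without a filter on low counts (-0.17, edgeR adjusted p = 0.121). ANXA2R, named as the annexin A2 receptor, was low, at 4.61 and 4.68, 3.82 and 4.80, and 2.09 and 1.94 CPM in ELK3-labelled, vector-labelled and control libraries, and passed the filter through the plasmid groups alone, so a rise was built into its test.

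S100A11 and annexin A1 form another complex of this kind, and both fell in both contrasts with controls. S100A11 was at 118.3 and 132.6 CPM in ELK3-labelled libraries, 101.4 and 117.9 CPM in vector-labelled libraries and 512.8 and 404.3 CPM in controls. Against controls its log2 fold change was -1.87 ± 0.10 in ELK3-labelled (edgeR adjusted p = 1.38e-16) and -2.07 ± 0.10 in vector-labelled libraries (edgeR adjusted p = 1.38e-17). ANXA1, whose protein limits inflammation through formyl peptide receptors, was at 48.8 and 46.5 CPM in ELK3-labelled libraries, 50.1 and 41.6 CPM in vector-labelled libraries and 197.8 and 197.4 CPM in controls. Its log2 fold changes were -2.06 ± 0.10 (edgeR adjusted p = 9.26e-19) and -2.10 ± 0.10 (edgeR adjusted p = 9.31e-19). For both genes the controls lay above all 4 other libraries. The ratio of S100A11 to 100 ANXA1 counts was 242 and 285 in ELK3-labelled, 202 and 283 in vector-labelled and 259 and 205 in control libraries, groups that overlap. S100A11 between the plasmid groups (0.20 ± 0.11, edgeR adjusted p = 0.0971) passed when vector-labelled replicate 2 (adjusted p = 0.0336), control replicate 1 (adjusted p = 0.0294) or control replicate 2 (adjusted p = 0.0275) was left out.

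**Figure D3:**
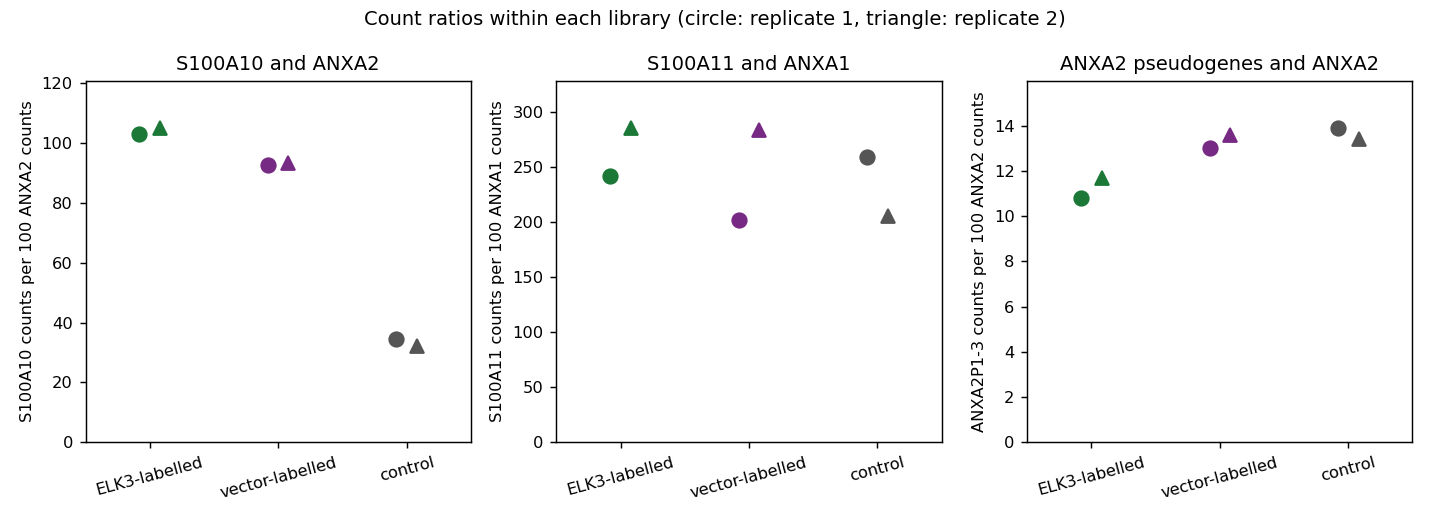
Counts of one gene per 100 counts of its partner in each library, for S100A10 and ANXA2, S100A11 and ANXA1, and the 3 ANXA2 pseudogenes and ANXA2 (circle, replicate 1; triangle, replicate 2). The first ratio separates the groups, with 103 and 105 in ELK3-labelled and 92.8 and 93.4 in vector-labelled libraries, against 34.4 and 32.3 in controls, and the second does not.

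All 8 tested annexins were lower in vector-labelled libraries than in controls, and 7 of the 8 in ELK3-labelled libraries, with median log2 fold changes of -1.31 and -1.08. Among all genes tested, 35.3% and 30.8% were lower in these contrasts. ANXA3, an annexin of secretory granules in neutrophils, was at 14.5 and 14 CPM in ELK3-labelled libraries, 11.6 and 9.20 CPM in vector-labelled libraries and 49.8 and 59.6 CPM in controls. Against controls its log2 fold change was -1.94 ± 0.15 in ELK3-labelled (edgeR adjusted p = 3.72e-13) and -2.37 ± 0.18 in vector-labelled libraries (edgeR adjusted p = 1.42e-14). ANXA6, which carries a duplicated annexin core and organises cholesterol-rich membrane, was at 134.2 and 142.0 CPM in ELK3-labelled libraries, 103.7 and 115.1 CPM in vector-labelled libraries and 341.7 and 306.4 CPM in controls. Its log2 fold changes against controls were -1.23 ± 0.09 (edgeR adjusted p = 4.14e-14) and -1.57 ± 0.09 (edgeR adjusted p = 1.03e-16). ANXA5, whose protein binds exposed phosphatidylserine and is used to stain dying cells, was at 102.9 and 94.9, 105.0 and 83.8, and 178.6 and 197.2 CPM in ELK3-labelled, vector-labelled and control libraries, with log2 fold changes of -0.93 ± 0.10 and -0.98 ± 0.10 against controls.

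ANXA7, first described as synexin for its fusion of chromaffin granules, and ANXA11, a partner of S100A6 that also links RNA granules to lysosomes, changed less. ANXA7 was at 52.6 and 44.9 CPM in ELK3-labelled libraries, 43.5 and 35.2 CPM in vector-labelled libraries and 74.0 and 84.3 CPM in controls (-0.71 ± 0.12 and -0.99 ± 0.12 against controls). ANXA11 was at 101.9 and 103.6 CPM in ELK3-labelled libraries, 102.8 and 94.8 CPM in vector-labelled libraries and 141.8 and 142.1 CPM in controls (-0.47 ± 0.09 and -0.52 ± 0.09). In both genes the controls lay above the other 4 libraries.

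ANXA4, an annexin of epithelial and secretory membranes, was the tested annexin not called between ELK3-labelled and control libraries. It was at 20.5 and 12.7 CPM in ELK3-labelled libraries, 8.67 and 6.80 CPM in vector-labelled libraries and 15.1 and 17.6 CPM in controls. ELK3-labelled libraries overlapped the controls (-0.02 ± 0.21, edgeR adjusted p = 0.953) and vector-labelled libraries lay below both. It was 2.06-fold higher in ELK3-labelled than in vector-labelled libraries (1.04 ± 0.23, edgeR adjusted p = 1.89e-04), and leaving out 1 library gave log2 fold changes from 0.70 to 1.39, all called. The vector-labelled libraries were 2.08-fold below controls (-1.06 ± 0.25, edgeR adjusted p = 2.27e-04).

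**Figure D4:**
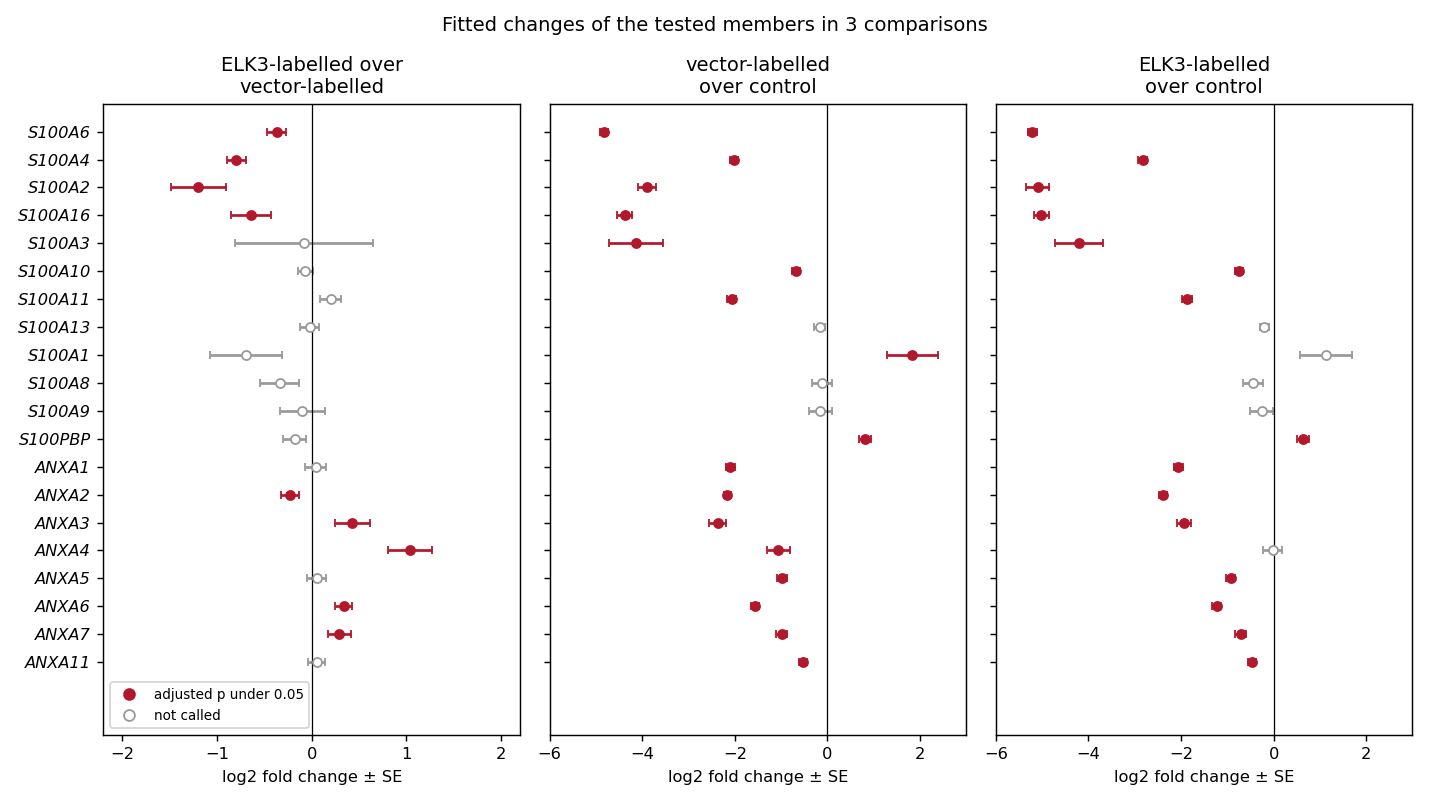
Log2 fold change with SE of the 20 tested members in 3 comparisons, ELK3-labelled over vector-labelled, vector-labelled over control and ELK3-labelled over control (the first panel has a narrower axis); filled points have an adjusted p under 0.05. Differences between the plasmid groups stay within -1.20 and 1.04, while against controls S100A6 reaches -5.21.

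Between the plasmid groups, 4 of 11 S100 genes were lower in ELK3-labelled libraries, and 4 of 8 annexins were higher and 1 lower. Whether the families differ in this was not tested. Over all genes tested 29.6% were lower and 30.0% higher, so the S100 share of 36.4% lower is near the background. The S100 genes lowered were S100A6, S100A4, S100A2 and S100A16. The annexins that were higher were ANXA4, ANXA6 (0.34 ± 0.09, edgeR adjusted p = 0.00182), ANXA3 (0.43 ± 0.19, edgeR adjusted p = 0.0475) and ANXA7 (0.29 ± 0.12, edgeR adjusted p = 0.0430). Only 3 of the 9 calls, ANXA4, S100A2 and S100A4, held in every alternative run. ANXA6 was lost without vector-labelled replicate 1 (log2 fold change 0.27), and ANXA7 without ELK3-labelled replicate 1 (0.19) or vector-labelled replicate 2 (0.17). With all libraries, ANXA7 was also lost with DESeq2 (adjusted p = 0.139), limma-voom (adjusted p = 0.0544) and a filter of 10 CPM in 2 libraries (edgeR adjusted p = 0.121). ANXA3 was lost without either ELK3-labelled replicate (0.42 and 0.46 without replicates 1 and 2) or vector-labelled replicate 2 (0.30). It was also lost in edgeR fits blocked by replicate number (adjusted p = 0.0544), at 10 CPM (adjusted p = 0.0901) and to only the 4 libraries compared (adjusted p = 0.0505). DESeq2 (adjusted p = 0.129) and limma-voom (adjusted p = 0.0666) lost it too. Liver transcripts moved in the same contrast: all 12 hepatocyte markers were lower in ELK3-labelled than in vector-labelled libraries, with a median of -0.33 and sums of 10420 and 10936 against 13835 and 12856 CPM, beside 12788 and 13206 CPM in controls. No marker of that list was at 0. The part of this in the small differences of S100A6 and ANXA2 was not tested.

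S100PBP, a nuclear protein named for binding S100P, was the member that rose in both contrasts with controls. It was at 46.0 and 47.9 CPM in ELK3-labelled libraries, 51.9 and 55.0 CPM in vector-labelled libraries and 26.8 and 33.8 CPM in controls. The log2 fold changes were 0.64 ± 0.13 (edgeR adjusted p = 6.40e-05) and 0.82 ± 0.13 (edgeR adjusted p = 1.19e-06). Its named partner S100P had 5 and 6 counts in ELK3-labelled, 6 and 4 in vector-labelled and 1 and 2 in control libraries.

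The 13 members below the filter were S100A5, S100A7, S100A7A, S100A12, S100A14, S100B, S100G, S100P, S100Z, ANXA8, ANXA9, ANXA10 and ANXA13. S100A7 (psoriasin) and S100A7A, S100 proteins of inflamed skin, had 0 counts in all 6 libraries, which allows up to 0.191 CPM over the ELK3-labelled, 0.254 CPM over the vector-labelled and 0.318 CPM over the control group. S100A12, a neutrophil protein, had 2, 7 and 5 counts in the ELK3-labelled, vector-labelled and control groups. S100A14, an epithelial S100 protein next to S100A16, had 11, 7 and 2. S100A5, within the S100A6 run, had 2 counts in ELK3-labelled and 1 in vector-labelled libraries, against 8 in controls, a scaled ratio of 0.150 (95% counting interval 0.0155 to 0.753) and of 0.0999 (0.00225 to 0.745). S100B, the glial S100 protein, had 14, 14 and 6 counts in those groups and S100Z 13, 9 and 7. S100G, the vitamin D-dependent calbindin of the gut, was seen as 2 counts in 1 control library. Among annexins, ANXA8 had 13, 18 and 21 counts, ANXA9 20, 8 and 4, ANXA10 8, 9 and 10, and ANXA13 1 count in 1 vector-labelled library. The upper bound of the ANXA8 ratio, ELK3-labelled over control, was 0.779 and the lower bound of the ANXA9 ratio 1.01, for counting error only. These genes were not tested and gave no direction beyond those intervals.

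Other genes of the same region and function were counted for comparison. Of 47 other protein-coding genes between S100A10 and S100A1, 43 were in the files and 2, FLG and TCHH, passed the filter. FLG, filaggrin of the skin barrier, was at 0.318 and 0.744 CPM in ELK3-labelled libraries, 28.5 and 21.6 CPM in vector-labelled libraries and 2.09 and 4.30 CPM in controls. It was lower in ELK3-labelled libraries than in controls (-2.44 ± 0.60, edgeR adjusted p = 1.91e-04) and higher in vector-labelled libraries (2.98 ± 0.33, edgeR adjusted p = 2.05e-11). FLG passed the filter through the vector-labelled and control groups, and had 2 and 7 counts in ELK3-labelled and 10 and 20 in control libraries. TCHH, trichohyalin of the hair follicle, was at 2.07 and 1.70, 2.64 and 4.0, and 1.05 and 0 CPM in ELK3-labelled, vector-labelled and control libraries, and passed the filter through the vector-labelled group alone. Of 9 keratinocyte markers, 2 passed the filter and both fell against controls. These were the keratin KRT10, at 113.5 and 113.0, 30.6 and 26.8, and 126.9 and 135.3 CPM in ELK3-labelled, vector-labelled and control libraries, and SFN, at 13.7 and 18.8, 12.8 and 11.6, and 117.1 and 123.2 CPM. The keratins KRT5, KRT1 and KRT14 had 0 to 0.209 CPM. The 9 markers summed to 128.0 and 132.0, 44.2 and 40.0, and 244.5 and 259.5 CPM in ELK3-labelled, vector-labelled and control libraries.

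Most genes of membrane repair also fell. Of 14 tested genes for repair proteins and calpains, 12 were lower in ELK3-labelled and 14 in vector-labelled libraries than in controls, with medians of -1.58 and -1.59. Over all genes tested, 30.8% and 35.3% were lower in these contrasts. CAV1, the caveolae protein, was at 72.2 and 68.8 CPM in ELK3-labelled and 66.7 and 66.2 CPM in vector-labelled libraries, against 683.4 and 670.1 CPM in controls. MYOF, a ferlin that mends the plasma membrane, was at 10.7 and 13.4 CPM in ELK3-labelled and 13.5 and 15.8 CPM in vector-labelled libraries, against 162.7 and 141.3 CPM in controls. AHNAK, a giant scaffold that binds the S100A10 and annexin A2 complex, was at 217.5 and 224.5, 112.4 and 104.7, and 333.3 and 392.0 CPM in ELK3-labelled, vector-labelled and control libraries, and was 2.03-fold higher in ELK3-labelled than in vector-labelled libraries (1.02 ± 0.09, edgeR adjusted p = 1.99e-11). In ELK3-labelled against vector-labelled libraries 5 of the 14 were higher and 2 lower, where 30.0% of all genes tested were higher and 29.6% lower. The list's share of 35.7% higher is near the background. CAV1 is also among the MDA-MB-231 markers.

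Of 9 tested genes of the plasminogen system, on which the S100A10 and annexin A2 complex acts, 7 were lower in ELK3-labelled and 6 in vector-labelled libraries than in controls. The shares of all genes tested that were lower were 30.8% and 35.3%. PLAU, urokinase, was at 7.16 and 8.82 CPM in ELK3-labelled and 9.11 and 7.40 CPM in vector-labelled libraries, against 431.2 and 423.0 CPM in controls (-5.71 ± 0.14, edgeR adjusted p = 2.22e-28 and -5.67 ± 0.16, edgeR adjusted p = 6.09e-28). PLAUR, its receptor, fell as well, with log2 fold changes of -3.14 ± 0.10 in ELK3-labelled libraries and -3.05 ± 0.10 in vector-labelled libraries against controls. Both genes are also on the list of MDA-MB-231 markers. PLAT, the tissue activator, was at 16.2 and 16.9, 5.73 and 5.40, and 40.4 and 31.0 CPM in ELK3-labelled, vector-labelled and control libraries.

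Calcium binders with EF-hands outside the S100 family moved in both directions. Of 19 tested, 7 were higher and 9 lower in ELK3-labelled libraries than in controls, and 9 were higher and 8 lower in vector-labelled libraries, with medians of -0.08 and -0.05. All genes tested divided into 31.8% higher and 30.8% lower in the ELK3-labelled contrast, and 37.0% and 35.3% in the vector-labelled contrast. CALB2, calretinin, was at 0.318 and 0.425 CPM in ELK3-labelled and 1.62 and 2.2 CPM in vector-labelled libraries, against 39.5 and 46.0 CPM in controls, the group through which it passed the filter. CALM2, which encodes calmodulin, was at 510.8 and 473.2, 283.7 and 255.9, and 1239 and 1283 CPM in ELK3-labelled, vector-labelled and control libraries. NUCB2, a calcium binder of the Golgi, went the other way, at 188.1 and 218.2, 380.5 and 349.2, and 93.5 and 112.5 CPM. In ELK3-labelled against vector-labelled libraries 3 of the 19 were higher and 7 lower, where 30.0% of all genes tested were higher and 29.6% lower.

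**Figure D5:**
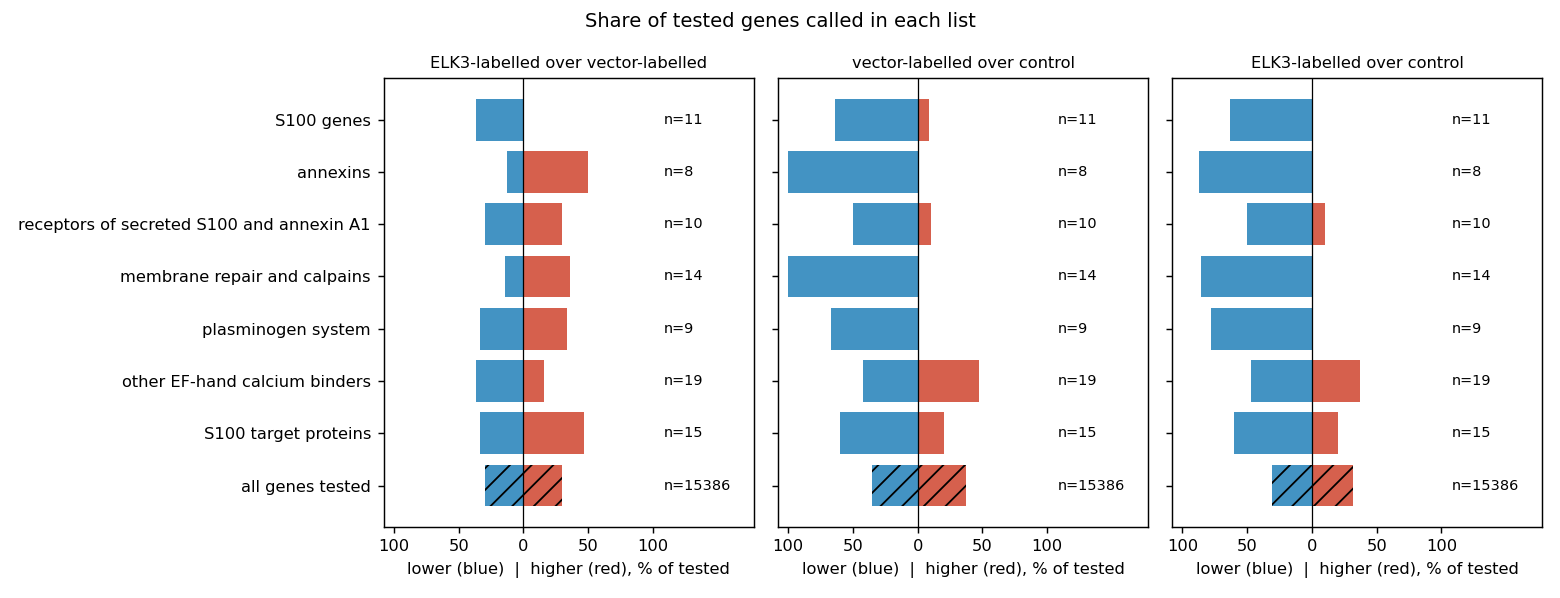
Share of tested genes called lower (blue, left) and higher (red, right) in each list, in percent, for the 3 comparisons; hatched bars are all 15386 genes tested. In vector-labelled libraries against controls all 8 annexins and all 14 membrane repair genes are lower, beside 35.3% of all genes, while EF-hand binders divide into 9 higher and 8 lower.

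Among 10 tested receptors of secreted S100 proteins and annexin A1, 1 was higher and 5 lower in each contrast with controls. Of all genes tested, 31.8% were higher and 30.8% lower in the ELK3-labelled contrast. The shares in the vector-labelled contrast were 37.0% and 35.3%. AGER, the receptor RAGE, was at 2.54 and 1.70, 2.5 and 2.4, and 2.30 and 3.87 CPM in ELK3-labelled, vector-labelled and control libraries and was not called. TLR4, a receptor of calprotectin, was at 0.954 and 0.638, 1.32 and 0.400, and 6.90 and 4.30 CPM, and passed the filter through the controls alone, so a fall was built into its test. FPR1, a receptor of annexin A1, was at 2.23 and 1.91, 2.64 and 2.0, and 5.44 and 4.30 CPM and also fell (-1.24 ± 0.39, edgeR adjusted p = 0.00601 and -1.04 ± 0.41, edgeR adjusted p = 0.0202). Among 15 tested genes for proteins that S100 members bind, 3 were higher and 9 lower in each contrast with controls, beside the same shares of all genes. MYH9, the heavy chain of the myosin bound by S100A4, was at 151.4 and 142.9 CPM in ELK3-labelled and 118.5 and 118.3 CPM in vector-labelled libraries, against 419.9 and 399.5 CPM in controls.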

How the data were processed

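RNA was sequenced in 6 libraries, 2 in each of 3 groups, assigned by their titles. The deposited values are raw counts of reads per gene symbol, with no scaling. The submitters' processing notes name Bowtie2, edgeR and hg19 without versions. The counting tool, its use of strand, the annotation and any filter are not given in the sources used here, and the kit's use of molecular identifiers is not stated. The 25737 lines of a file give 24462 distinct symbols, and lines that share a symbol were summed (no member was among them). Members and gene lists were chosen with earlier results of these data known, so no list is independent support.

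The tests used edgeR 4.0.16 under R 4.3.3. Genes passing filterByExpr (minimum count 10), 15386 in all, were scaled by TMM. The 6 libraries entered 1 robust quasi-likelihood fit with 3 group means, which leaves 3 residual degrees of freedom (biological coefficient of variation 0.065). P-values are two-sided, with Benjamini-Hochberg adjustment within each of 3 contrasts across every gene tested, and 0.05 was the threshold. Each log2 fold change carries the SE of this fit. All members could be named. From each other list the text names genes among the 3 of smallest p per contrast, or of a fixed panel. The keratins, SFN, MPO, ELANE, VCAN, CD14, NCAM1, ANXA2R and the ANXA2 pseudogenes were added after their values were seen. Counting intervals are exact at 95%.

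Within groups, counts differed by more than sampling noise (chi-square per degree of freedom 2.31 to 3.21), and the correlation of log2 CPM (Pearson's r over genes, which are not replicates) was 0.986 to 0.99 within groups and 0.798 to 0.907 between them. Alternatives were a replicate block, DESeq2 1.42.0 and its size factors, library totals, limma-voom (limma 3.58.1), no filter, a minimum of 10 CPM in 2 libraries, a fit to just the 4 libraries of a contrast, and leaving out each library. Summing ANXA2 with its pseudogenes was added after seeing the data. The RefSeq tables (GRCh38.p14) gave map order, chromosome and promoter windows. Windows matched 30 of 33 members. Some items are not reported here.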

Additional observations from a re-analysis of the deposited data

Results flagged for a closer look

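For 2 members the effects in the plasmid groups, each against the same controls, differed by more than 2-fold, and the contrast between the plasmid groups, which tests that difference, was called with edgeR. ANXA4 differed by 1.04 on the log2 scale (ELK3-labelled minus vector-labelled, adjusted p = 1.89e-04), with levels of 20.5 and 12.7 CPM in ELK3-labelled and 8.67 and 6.80 CPM in vector-labelled libraries. S100A2 differed by -1.20 (adjusted p = 4.65e-04), with 3.02 and 2.98 CPM in ELK3-labelled and 5.29 and 9.0 CPM in vector-labelled libraries. Both directions turn if the labels of the plasmid groups are exchanged.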

How the results depend on the processing

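All 15 calls of members between ELK3-labelled and control libraries and all 17 between vector-labelled and control libraries held their direction and side of the threshold in every alternative that tested them. Between ELK3-labelled and vector-labelled libraries, members called higher numbered 4, and 2 with DESeq2, 2 with limma-voom, 2 with the filter of 10 CPM and 2 to 5 with each library left out; members called lower numbered 5, and 3 to 5 with each library left out. Against controls, members higher in vector-labelled libraries numbered 2, and 1 with the filter of 10 CPM. Members higher in ELK3-labelled libraries numbered 1, and 2 with library totals, 2 with only the 4 libraries compared and 1 to 2 with each library left out, where S100A1 was added. Members lower numbered 15 in vector-labelled and 14 or 15 in ELK3-labelled libraries. The cause of these shifts was not tested, apart from the smaller number of genes or libraries that an alternative leaves. Library totals moved the median of all genes by 0.16 in the ELK3-labelled and 0.13 in the vector-labelled contrast with controls, and the lack of a filter moved it by 0.15 in the vector-labelled contrast.

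Deviations of same-numbered libraries from their group means correlated at -0.000659, 0.0332 and -0.0556 over genes, which are not replicates. With 2 libraries a group these values cannot decide whether a replicate number marks a shared culture, day or batch, which is not stated. With the number as a block, members higher and lower numbered 3 and 5 between the plasmid groups, 2 and 15 in vector-labelled against control and 1 and 14 in ELK3-labelled against control libraries.

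Reversals of sign met 20 values, none called. Between ELK3-labelled and vector-labelled libraries, the filter of 10 CPM gave -0.03 for ANXA1, -0.01 for ANXA5 and -0.01 for ANXA11, and S100A13 gave 0.00 with library totals and 0.04 without a filter. In the same contrast, leaving out each library gave ANXA1 from -0.06 to 0.20, ANXA5 from -0.08 to 0.24, S100A3 from -0.64 to 0.49, S100A9 from -0.22 to 0.01, S100A10 from -0.14 to 0.03 and S100A13 from -0.07 to 0.05. ANXA4 in ELK3-labelled against control libraries gave 0.15 with library totals, 0.00 with DESeq2, 0.02 at 10 CPM and -0.37 to 0.33 with each library left out. S100A8 in vector-labelled against control libraries gave 0.01 with library totals and -0.34 to 0.02 with each library left out. Of the other fits of single members, 844 kept direction and side, 21 lost a call and 8 gained one. ANXA8, below the filter, was called in ELK3-labelled against control libraries only without control replicate 2 (-1.79, adjusted p = 0.0271). Depth limits S100A1, S100A2, S100A3 and the 13 members below the filter.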
